A study of Mus musculus with 6 samples.

Results

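Cytosolic ribosomal protein genes encode the proteins that, with ribosomal RNA, build the large (Rpl) and small (Rps) subunits of the ribosome. They were chosen by name: protein-coding genes of the table whose GENCODE M21 symbol is Rpl or Rps followed by a number, or is Rpsa, Rplp0, Rplp1 or Rplp2, with Rps27a and the Rps6k kinases left out. This gave 91 of the 54385 genes in the table. Of these, 46 encode proteins of the large subunit and 30 of the small subunit. A further 7 are paralogs of such genes (Rpl3l, Rpl7l1, Rpl10l, Rpl22l1, Rpl36al, Rpl39l and Rps27l). Another 7 are retrocopies that the annotation lists as protein-coding (Rpl10-ps3, Rpl36-ps4, Rpl36a-ps1, Rpl9-ps1, Rpl9-ps6, Rps12-ps3 and Rps27rt). The last, Rps19bp1, matches the name rule but encodes a binding partner of a ribosomal protein, and it is counted apart.

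The study compared interscapular brown adipose tissue of C57BL/6N wild-type mice (WT, genotype wt/wt) with that of ADCY3∆AT mice, a knockout of Adcy3-AT, which the series title describes as a truncated adenylyl cyclase 3 expressed in the cold. All animals were aged 20 weeks and fed chow, and there were 3 libraries of polyadenylated RNA per genotype. The labels name no promoter or Cre driver for the knockout, do not say whether it was made in all cells, and do not say whether each library came from its own mouse, so the p-values measure the spread between these libraries, which may be technical. The design text of the series calls the tissue inguinal, against the interscapular of every sample label. Ucp1, the heat-making protein that defines brown fat, was at 5248, 5432 and 3679 CPM (counts scaled to library size) in WT and 4028, 4486 and 4202 CPM in ADCY3∆AT, so the brown fat label held in each library.

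Ribosomal proteins are made in equal numbers, 1 of nearly every kind per ribosome, and their messages are among the most abundant of a cell. Most begin with a run of pyrimidines, the terminal oligopyrimidine (TOP) tract, through which the mTORC1 kinase and the RNA-binding protein Larp1 control how well they are translated. That control acts on translation, so messenger RNA levels as measured here do not show it. In brown fat, cyclic AMP made by adenylyl cyclases after adrenergic signals drives heat production, and tissue growth in the cold needs protein synthesis.

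The following start regions show where the pyrimidine run lies in 8 of the most abundant subunit genes that have one of at least 8 bases. They are 30 bases around the RefSeq transcription start on GRCm38.p6, written 5′ to 3′ on the gene's strand, with the longest run of C and T in capitals. The first 15 bases lie before the start. In Rpl19, Rpl4 and Rpl13 the marked run lies wholly before that start, and in Rpl13a it lies wholly after it.
Rpl13a, chr7:45128731-45128760, minus strand: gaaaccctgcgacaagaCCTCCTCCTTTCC
Rplp2, chr7:141447636-141447665, plus strand: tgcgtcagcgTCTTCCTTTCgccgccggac
Rpl7a, chr2:26910792-26910821, plus strand: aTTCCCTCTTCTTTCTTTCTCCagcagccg
Rpl19, chr11:98026909-98026938, plus strand: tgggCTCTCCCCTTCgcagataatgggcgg
Rpl4, chr9:64173372-64173401, plus strand: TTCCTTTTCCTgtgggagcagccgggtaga
Rps9, chr7:3704026-3704055, plus strand: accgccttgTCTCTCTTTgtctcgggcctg
Rpl13, chr8:123102335-123102364, plus strand: TTCCCTTTCgcctgattttgattggcgttt
Rps24, chr14:24490663-24490692, plus strand: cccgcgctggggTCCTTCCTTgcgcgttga
RefSeq start regions were found for 57 of the 76 subunit genes, 67 regions in all. A run of at least 8 pyrimidines within 15 bases of the start occurred in 38.8% of these 67 and in 12% of all 32851 start regions. Runs before the start were counted too, so this is not the share of messages that begin with a TOP tract. Further motifs were searched on both strands of the 300 bases from 250 before to 50 after the start. The E-box CACGTG, bound by Myc and Max, was in 11.9% of the regions of subunit genes and 7.15% of all. CCGGAAGT, the core of ETS and GABP sites, was in 16.4% against 3.89%, and AAGATGGC, the core of YY1 sites, in 10.4% against 2.75%. The GC box GGGCGG was in 61.2% against 35.7%, while TATAAA was in 8.96% against 13.6%. These are matches of letters, not bound sites.

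Between 0.933% and 1.06% of each library's counts fell on the 91 genes. The share was 0.978%, 0.933% and 1.06% in the 3 WT libraries and 0.948%, 1.01% and 1.00% in the 3 ADCY3∆AT libraries. The genotypes overlapped: the WT libraries held both the lowest and the highest share, and the means were 0.991% ± 0.0653 (SD, n = 3) in WT and 0.989% ± 0.0357 (SD, n = 3) in ADCY3∆AT. The ratio of large-subunit to small-subunit counts was 1.49 ± 0.0126 (SD, n = 3) in WT and 1.48 ± 0.0250 (SD, n = 3) in ADCY3∆AT, a difference within the spread of the libraries. Library totals ran from 13758492 to 19592156 estimated counts, and genes encoded in mitochondria took 21.9% to 24.4% of them. The row that the authors' table holds under an identifier outside GENCODE M21, near 0 in ADCY3∆AT (1.27, 0 and 0 CPM) and at 118 to 215 CPM in WT, separated the genotypes as labelled, whereas Adcy3 itself, at 248, 209 and 166 CPM in WT and 167, 195 and 239.8 CPM in ADCY3∆AT, overlapped between them.

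As a class the subunit genes were highly expressed. Rps2, a small-subunit protein at the entry of the messenger RNA channel, had the highest level among them, with 454, 434 and 480 CPM in WT and 445, 442 and 429 CPM in ADCY3∆AT. It ranked 241 by mean CPM among all 14332 genes tested. Rplp0, Rplp1 and Rplp2 form the stalk that recruits elongation factors. Rplp0 was at 318, 316 and 329 CPM in WT and 327, 323 and 347 CPM in ADCY3∆AT. Over the 76 subunit genes the mean of the 6 libraries had a median of 114 CPM, and 47 of them lay in the top 10% of all genes tested. Per kilobase of the longest annotated coding sequence, Rpl41 led with 1338 CPM per kb, followed by Rplp2 (704), Rplp1 (567), Rps29 (555), Rps2 (494) and Rpl13a (419 CPM per kb). Counts also fall on the rest of the message, so this order favours genes with a short coding sequence, such as Rpl41 at 138 bases. Per kilobase of all annotated exonic sequence the first 6 were Rplp1 (389), Rpl36 (297), Rps2 (244), Rps15 (222), Rpl19 (219) and Rpl23a (213 CPM per kb), and Rplp1 and Rps2 were in both orders. The ratio of the upper to the lower quartile of the subunit genes was 3.11 per exonic kilobase and 1.63 per coding kilobase, so the order depended on which length was used.

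Near-identical copies elsewhere in the genome also held counts for many members. Of the 31-base words in the coding transcripts of each subunit gene, a median of 44.5% also occurred in other genes, with a range of 1.95% to 94.1%. In all, 94 other genes of the table had at least 80% of their own words inside the transcripts of a subunit gene or, for 1 of them, of the paralog Rpl36al, most of them processed pseudogenes, and 29 of them passed 1 CPM in at least 1 library. When the counts of such copies were added, the row under the gene's own name held less than 90% of the sum for 19 of the 76 genes and less than 50% for 8 (Rpl5, Rpl12, Rps27, Rpl10, Rpl27a, Rpl35, Rpl11 and Rps23). How the authors' counting divided reads between copies was not given in the sources used here.

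**Figure D1:**
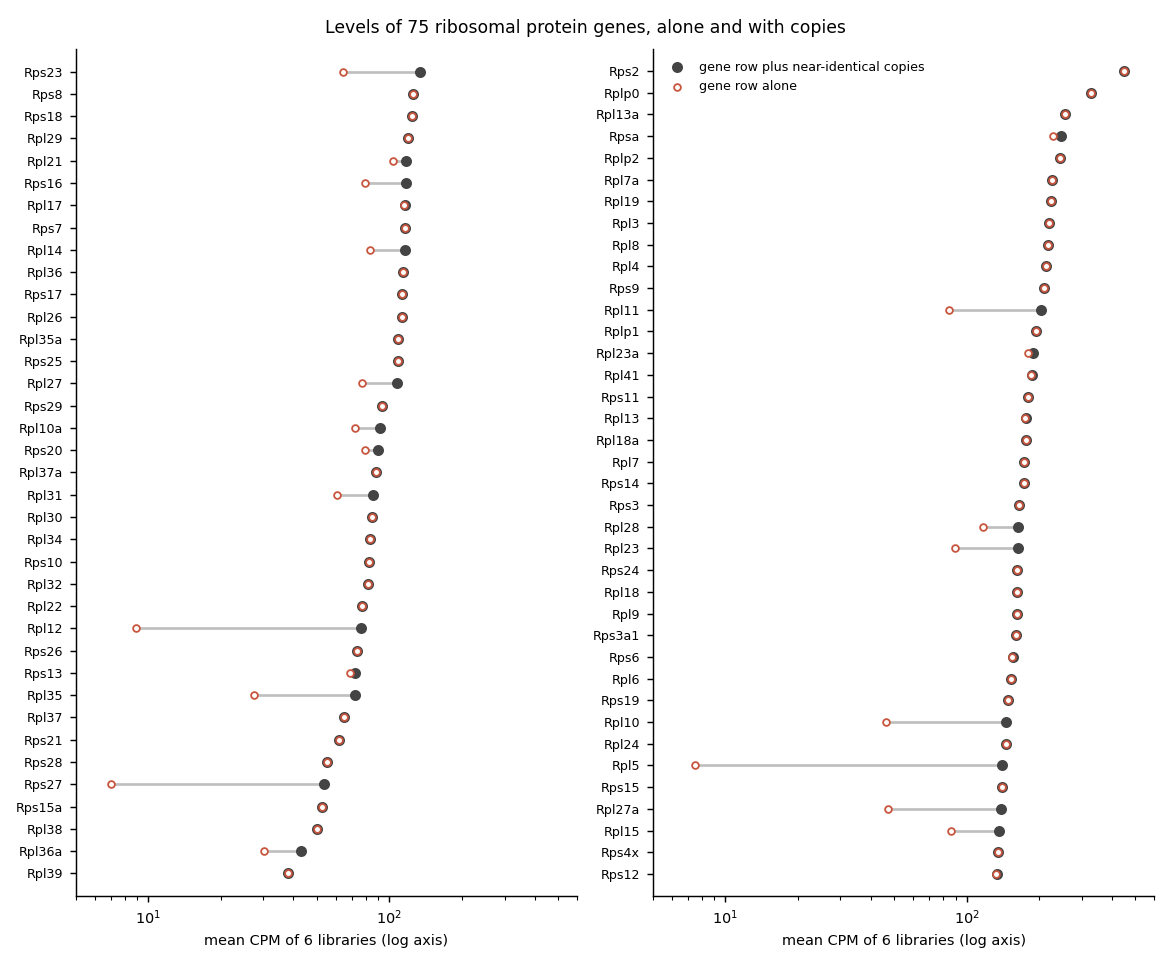
Mean CPM of 6 libraries (log axis) for 75 of the 76 subunit genes, as the gene's own row (open circles) and with the counts of near-identical copies added (filled circles), ordered by the latter. Rpl5, Rpl12 and Rps27 lie below 10 CPM alone and between 53.7 and 140.0 CPM with their copies.

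The gene with the smallest share of the sum in its own row was Rpl5, which with Rpl11 and the 5S ribosomal RNA forms a particle that can bind Mdm2 and so raise p53. Its row held 8.68, 5.76 and 7.72 CPM in WT and 8.75, 6.38 and 7.80 CPM in ADCY3∆AT. The processed pseudogene Gm15500, on chromosome 7, held 129, 121 and 133 CPM in WT and 131, 139 and 144 CPM in ADCY3∆AT. Read with this copy, Rpl5 stood at 140.0 CPM on average, close to the median of 133 CPM for the 76 sums, and its own row held 5.37% of the sum. Rpl12 was alike, with 8.23, 7.54 and 9.41 CPM in WT and 9.63, 9.43 and 9.06 CPM in ADCY3∆AT against 63.1 to 71.6 CPM in its copy Gm10275. For Rpl21 the copies changed places between libraries. Gm10163 was at 15.8, 0 and 16.4 CPM in WT and 14.1, 0 and 0 CPM in ADCY3∆AT, and Gm13370 was at 0, 13.2 and 0 CPM in WT and 0, 12.2 and 13.7 CPM in ADCY3∆AT. In each library 1 of these 2 copies was at 0, in both genotypes, while Rpl21 itself stayed between 93.8 and 109.9 CPM. Summed with the copies, the lowest of the 76 genes was Rpl39 at 38.1 CPM, against 7.02 CPM for Rps27 before.

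The largest fitted difference in each direction among the members belonged to a gene and its own copy. Rps27, a zinc-finger protein of the small subunit (chr3:90212522-90213651, minus strand, GRCm38), and its retrocopy Rps27rt (chr9:114982366-114982739, minus strand) share their coding sequence without a single difference over 255 bases. That shared sequence, from start to stop codon as in GENCODE M21, is shown because nothing inside it tells the genes apart.
Rps27 and Rps27rt: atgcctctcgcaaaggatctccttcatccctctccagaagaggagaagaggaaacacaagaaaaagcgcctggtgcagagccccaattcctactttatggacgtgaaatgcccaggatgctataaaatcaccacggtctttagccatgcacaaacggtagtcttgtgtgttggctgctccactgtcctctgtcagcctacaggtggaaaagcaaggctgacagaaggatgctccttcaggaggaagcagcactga
Their start regions differ upstream and share a run of 14 bases. They are 30 bases around the RefSeq start, with the longest pyrimidine run in capitals. In Rps27rt a later run, within the shared bases, is as long as the one marked.
Rps27, chr3:90213634-90213663, minus strand: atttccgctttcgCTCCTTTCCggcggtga
Rps27rt, chr9:114982725-114982754, minus strand: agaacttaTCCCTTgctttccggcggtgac
Rps27 was at 5.29, 3.92 and 23.5 CPM in WT and 5.06, 2.26 and 2.08 CPM in ADCY3∆AT. WT replicate 3 stood far above the other libraries, and the genotypes overlapped. The log2 fold change of Rps27 was -1.81 (SE 0.68), not called (edgeR quasi-likelihood test, adjusted p = 0.163), and -0.55 without WT replicate 3 (adjusted p = 0.502).

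Rps27rt differed in the other direction. It was at 44.0, 44.0 and 31.9 CPM in WT and 51.8, 54.5 and 53.9 CPM in ADCY3∆AT, with all ADCY3∆AT libraries above all WT libraries. WT replicate 3, highest for Rps27, was lowest for Rps27rt. Its log2 fold change was 0.42 (SE 0.12), also short of the threshold (edgeR adjusted p = 0.094), and 0.28 without WT replicate 3. The sum of both genes was 49.3, 47.9 and 55.4 CPM in WT and 56.9, 56.7 and 56.0 CPM in ADCY3∆AT. The groups did not overlap for the sum, but the difference was 0.15 (SE 0.08) on the log2 scale and was not called (edgeR adjusted p = 0.284). In WT replicate 3 Rps27 took 42.4% of the sum, against 3.71% to 10.7% in the other 5 libraries. The Wald test of DESeq2, which called 6.93% of genes, called Rps27rt (adjusted p = 0.0377), and edgeR with no filter on low counts, which called 5.72% of genes, called both Rps27rt and Rps27. No other member was called in any fit that was run.

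**Figure D2:**
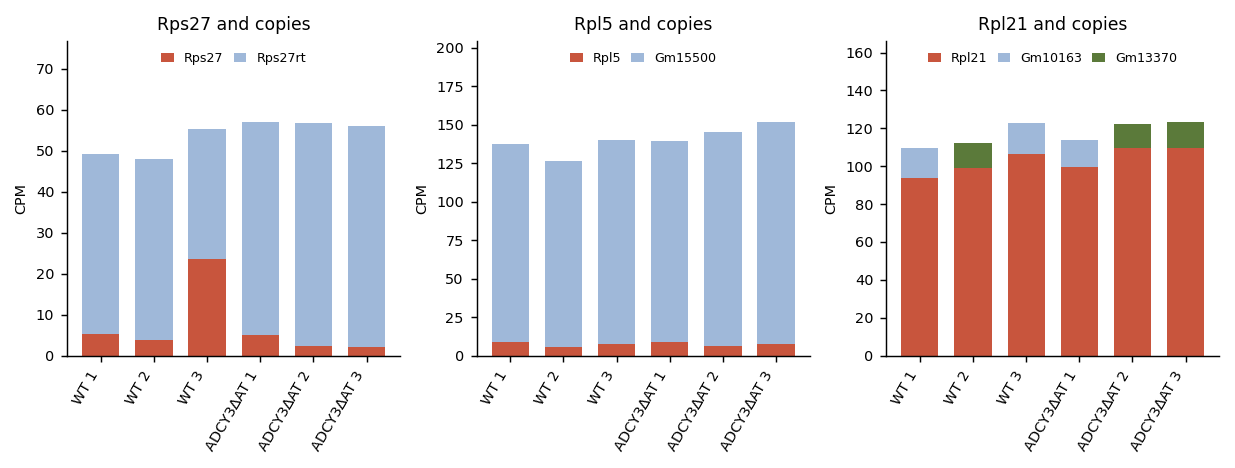
Stacked CPM per library for Rps27, Rpl5 and Rpl21 with their near-identical copies, WT replicates 1 to 3 and ADCY3∆AT replicates 1 to 3. The division between Rps27 and Rps27rt differs in WT replicate 3, Gm15500 holds most of the Rpl5 sum in all 6 libraries, and the 2 copies of Rpl21 alternate.

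Across genotypes, no member passed the test. Of the 91 genes, 84 had enough counts to be tested and 0 were called at an adjusted p under 0.05 in the edgeR quasi-likelihood test, in a comparison that called 4.30% of all 14332 genes tested (377 higher and 239 lower in ADCY3∆AT). At an unadjusted p under 0.05 there were 3 members, Rps27, Rps27rt and Rps6. The median log2 fold change was -0.01 over the 84 members, with 38 above 0 and 46 below, and -0.01 over all genes tested. The split depended on the scaling and on single libraries: 24 were above 0 and 60 below with upper-quartile factors, 26 above and 58 below without WT replicate 2, and 57 above and 26 below without WT replicate 3. The interquartile range of the members lay between -0.07 and 0.05, and that of all genes between -0.19 and 0.18. The median was -0.03 over the 46 large-subunit genes and 0.01 over the 30 small-subunit genes.

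The intervals of these differences were narrow for most members. For 77 of the 84 members the 95% interval of the difference lay within a 1.25-fold change in either direction. The exceptions were Rps27, Rps27rt, Rpl5, Rpl12, Rpl35, Rpl39l and Rps19bp1. With the copies added, the interval lay within 1.25-fold for 75 of the 76 subunit genes, and 0 were called. The exception was Rps27, whose upper bound of 0.33 on the log2 scale lay just past the limit of 0.32. The median coefficient of variation between replicates was 6.02% in WT and 4.25% in ADCY3∆AT over the members, against 10.5% in each genotype over all genes tested. Levels were not matched in this comparison, and 47 of the 76 subunit genes lay in the top 10% of all genes tested by level. A lower variation is therefore not shown to be particular to the members.

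**Figure D3:**
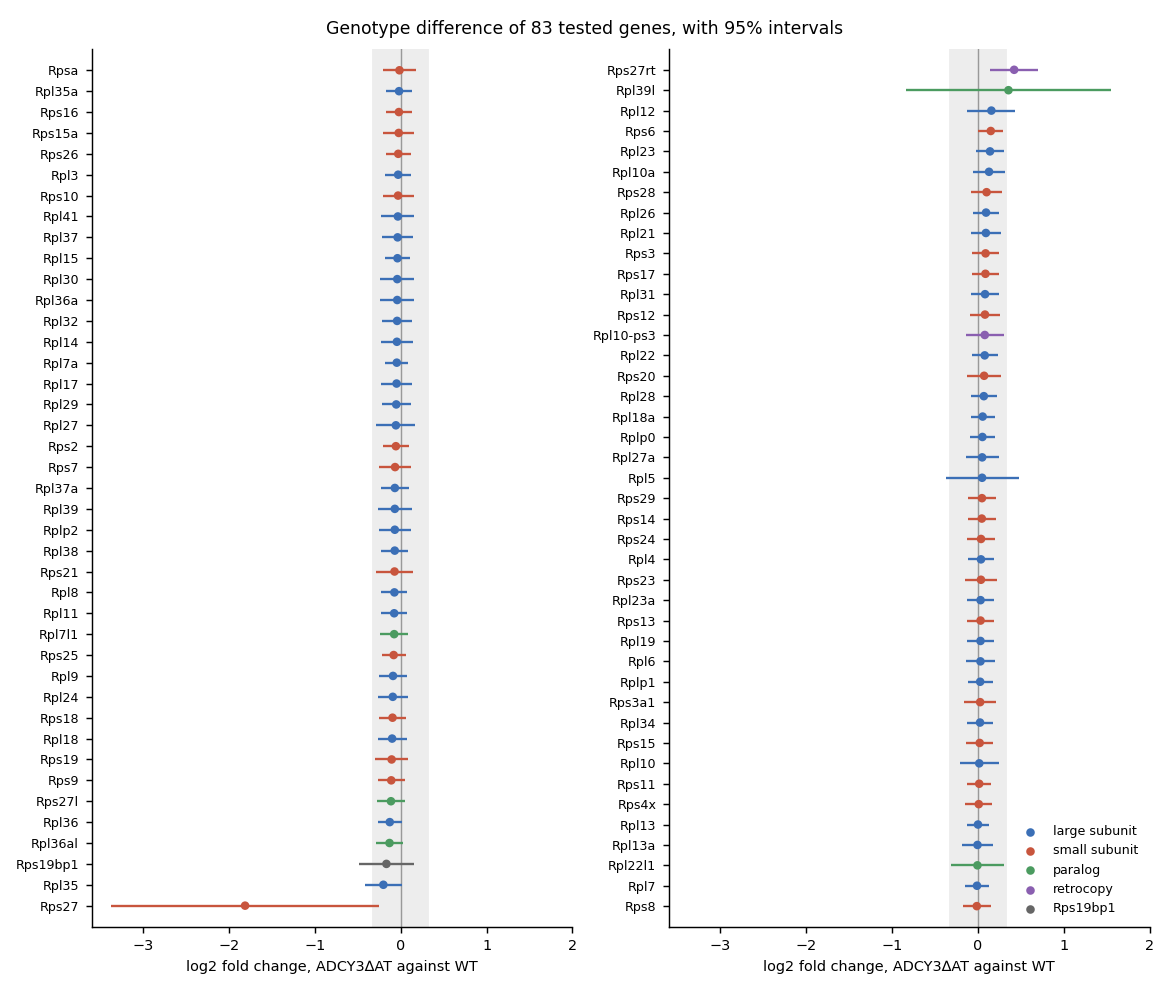
Log2 fold changes of 83 of the 84 tested members, ADCY3∆AT against WT, with 95% intervals from edgeR, coloured by class and ordered by size. The grey band marks a 1.25-fold change in either direction; 76 of the intervals shown lie inside it, and that of Rps27 is the widest.

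For 5 of the 84 tested members all ADCY3∆AT libraries lay above all WT libraries (5.95%), where 15.1% of all genes did so, and for 7 all lay below (8.33%), where 13.9% of all genes did. The first set included Rps6, Rpl22, Rpl26 and Rps27rt. The second held Rpl35, Rpl36, Rps9, Rps18, Rps25, Rpl36al and Rps27l. Both shares were under the background of all genes. WT replicate 3 was the highest library for 49 members and WT replicate 2 the lowest for 44, so the members are not independent. The difference in shares was not tested.

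Rps6, the small-subunit protein that the S6 kinases phosphorylate downstream of mTORC1, was at 153, 141 and 145 CPM in WT and 157, 160.4 and 169 CPM in ADCY3∆AT. Its log2 fold change was 0.15 (95% interval 0.00 to 0.30, edgeR adjusted p = 0.221). The genotypes were separated by a margin near the spread of the libraries, and it was not called. Rpl23 and Rpl10a had log2 fold changes of 0.14 and 0.13 with overlapping groups. With near-identical copies added, the log2 fold change was 0.11 for Rps6 (95% interval -0.04 to 0.27) and 0.07 for Rpl10a, which also had 0.07 without WT replicate 1. On the other side, Rpl35, at the exit of the peptide tunnel, was at 28.7, 27.9 and 31.8 CPM in WT and 27.5, 23.1 and 26.2 CPM in ADCY3∆AT, a log2 difference of -0.20 (95% interval -0.42 to 0.01, edgeR adjusted p = 0.249). Its copy Gm2000 held more counts than Rpl35 itself, 40.9 to 47.8 CPM, and their sum had a log2 fold change of -0.06. Rpl36 was at 119.7, 114 and 122 CPM in WT and 107, 110.3 and 109 CPM in ADCY3∆AT, a log2 difference of -0.13 (edgeR adjusted p = 0.260).

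Some members have a known role outside bulk translation, and like all tested members they were not called in the edgeR quasi-likelihood test. Rps19, mutated in human Diamond-Blackfan anaemia, was at 146, 143 and 170 CPM in WT and 149.5, 143 and 134 CPM in ADCY3∆AT, so that WT replicate 3 was above the other 5. Rpl11 was at 87.6, 84.9 and 88.3 CPM in WT and 80.7, 79.2 and 87.3 CPM in ADCY3∆AT, with its copy Gm10288 at 106 to 139 CPM. Rpl38, which mouse embryos need for the translation of Hox messages, was at 53.9, 49.1 and 51.1 CPM in WT and 50.4, 47.4 and 49.0 CPM in ADCY3∆AT. In each of these the libraries of the genotypes overlapped. Rpsa, also known as the laminin receptor precursor, Rpl41, the shortest of the ribosomal proteins, and Rps25, needed by several viral internal ribosome entry sites, had log2 fold changes of -0.01, -0.03 and -0.08. The stalk proteins Rplp0, Rplp1 and Rplp2 had 0.05, 0.02 and -0.07.

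Many members lay high or low in the same library, by small amounts. WT replicate 3 was the highest of the 6 libraries for 49 of the 84 tested members, and WT replicate 2 was the lowest for 44. Over all genes tested, WT replicate 3 was highest for 21.9% and WT replicate 2 lowest for 14%. The median deviation of the members from their own mean over the 6 libraries, on the log2(CPM + 0.5) scale, was -0.01, -0.07 and 0.08 in WT and -0.03, 0.00 and 0.02 in ADCY3∆AT. The WT libraries were thus the more spread, and the ADCY3∆AT libraries lay between them. It was the same for both subunits, with WT replicate 3 highest for 28 of the 46 large-subunit genes and 17 of the 30 small-subunit genes. Markers of other cells differed between the libraries as well. The summed level of 8 erythroid markers was 1338, 805 and 1722 CPM in WT and 729, 1380 and 1136 CPM in ADCY3∆AT, and that of 12 macrophage markers was 76.7, 85.4 and 135 CPM in WT and 73.8, 114 and 128 CPM in ADCY3∆AT. WT replicate 3 also had the highest summed level of 17 skeletal muscle markers, 828 CPM against 47.4 to 177 CPM in the other 5 libraries, and the lowest of 13 brown adipocyte markers, 8351 CPM against 8896 to 10175 CPM. Their part in the level of the members was not tested, and in whole tissue a change in the number of such cells and a change in RNA per cell cannot be told apart.

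**Figure D4:**
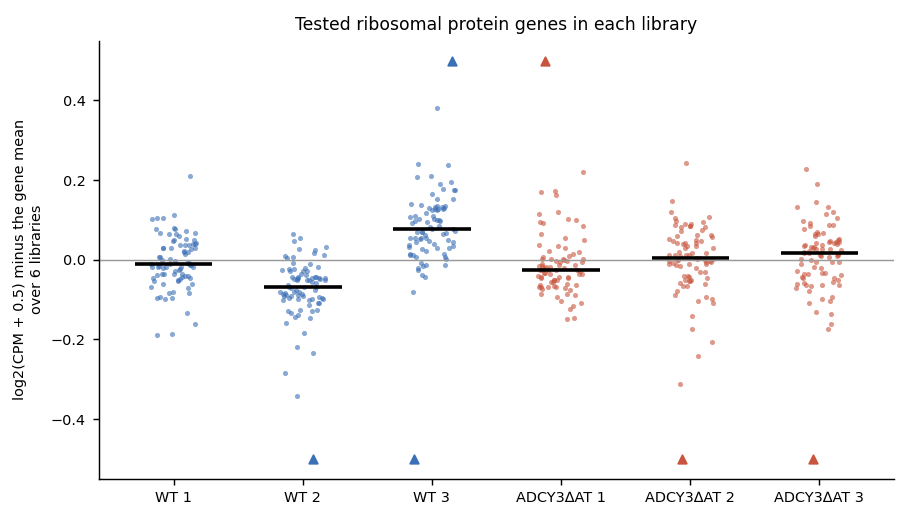
Deviation of each of the 84 tested members from its own mean over the 6 libraries, log2(CPM + 0.5), by library, with the median as a bar; triangles at the edge mark genes beyond 0.5 in either direction. The medians run from -0.07 in WT replicate 2 to 0.08 in WT replicate 3, with the ADCY3∆AT libraries between.

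Paralogs of subunit genes were measured beside their partners. Whether their proteins enter the ribosome was not tested. Rpl36al, at 62.8, 60.8 and 63.8 CPM in WT and 59.2, 58.8 and 53.3 CPM in ADCY3∆AT, was above Rpl36a, which was at 29.3 to 33.3 CPM in WT and 28.8 to 31.9 CPM in ADCY3∆AT. Rps27l, a p53 target, was at 66.1, 64.7 and 69.0 CPM in WT and 62.3, 58.0 and 64.5 CPM in ADCY3∆AT. Both lay lower in every ADCY3∆AT library, by log2 fold changes of -0.13 and -0.11, and neither was called (edgeR adjusted p = 0.317 and 0.379). Rpl22l1 was at 9.16 to 12.5 CPM in WT and 10.1 to 11.8 CPM in ADCY3∆AT against 74.5 to 83.7 CPM for Rpl22 over all libraries, and Rpl7l1 was at 51.8 to 59.4 CPM against 169 to 183 CPM for Rpl7. Rpl39l, known from the testis, was near the limit of detection at 0.296 to 1.27 CPM against 35.3 to 41.7 CPM for Rpl39. Rps4x, the X-linked gene whose paralog Rps4l was not analysed here, was at 128 to 144 CPM. Rpl10l, known from the testis, was at 0 in all 6 libraries, which allows up to 0.152 to 0.222 CPM (3 counts per library, counting error only), while Rpl10 was at 40.7 to 50.1 CPM and its retrocopy Rpl10-ps3 at 88.4 to 113 CPM.

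Rpl3l, the form of Rpl3 found in heart and skeletal muscle, was too low to be tested. It was at 0.261, 0.813 and 2.09 CPM in WT and 0.0550, 0.199 and 0.202 CPM in ADCY3∆AT, and the lowest WT library lay just above the highest ADCY3∆AT library. Both of these libraries held 4 estimated counts, so their order came from library size alone. Skeletal muscle messages were also lower: of 17 muscle markers 14 were tested, and 8 were called lower in ADCY3∆AT. Over all genes, 239 of 14332 tested were called lower. The summed level of the 17 markers was 70.9, 177 and 828 CPM in WT and 47.4 to 49.6 CPM in ADCY3∆AT. The WT libraries thus differed widely, and WT replicate 1 lay nearest to ADCY3∆AT. In ADCY3∆AT Pvalb was at 0 in all 3 libraries and Myl1 made up most of the sum. The fast myosin gene Myh4 was at 7.05, 27.2 and 165 CPM in WT and 0.220, 0.133 and 0.0506 CPM in ADCY3∆AT, in the same order over the WT libraries as Rpl3l. The part of muscle RNA in the level of Rpl3l was not tested. Rpl3 itself was at 224, 224 and 218 CPM in WT and 204, 222 and 227 CPM in ADCY3∆AT.

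The other members that were not tested were Rpl10l and 5 retrocopies. Rpl36a-ps1 and Rpl9-ps6 were at 0 in all libraries, and Rpl36-ps4 and Rpl9-ps1 never passed 0.275 CPM. Rps12-ps3 was at 4.19 CPM in ADCY3∆AT replicate 2 and at 0 in the other 5 libraries. Rps19bp1 was at 13.6, 14.7 and 16.7 CPM in WT and 15.8, 11.2 and 13.0 CPM in ADCY3∆AT, with overlapping groups.

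Genes that work with the ribosome were compared in 9 lists: other ribosomal subunits (the ubiquitin fusions and bound proteins), elongation factors, initiation factors, other messages with a TOP tract, RNA polymerases I and III, ribosome assembly, mTORC1, transcription factors of ribosomal protein genes, and ribosome stalling and quality control. Over the 278 tested genes of these lists 13 rose and 1 fell in ADCY3∆AT, or 5.04% against 4.30% of all genes. None of the 4 other ribosomal subunits was called. Fau, a fusion of a ubiquitin-like protein with a small-subunit protein, was at 113, 109 and 129 CPM in WT and 111, 105 and 102 CPM in ADCY3∆AT, a log2 difference of -0.14 with overlapping groups (edgeR adjusted p = 0.341).

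The 1 gene that fell was Eef2k, the kinase that slows elongation by phosphorylating elongation factor 2. It was at 14.4, 14.5 and 18.9 CPM in WT and 8.86, 8.97 and 10.5 CPM in ADCY3∆AT, with no overlap and a difference of -0.75 (SE 0.14) on the log2 scale (edgeR adjusted p = 0.0269). It was called among 12 tested elongation genes, and it also stands in the mTORC1 list. Among 40 initiation genes 2 rose. Eif4a2, an RNA helicase of cap-dependent initiation, was at 175, 180.5 and 171 CPM in WT and 239, 234 and 239.8 CPM in ADCY3∆AT, a log2 fold change of 0.44 (SE 0.06). Pabpc4, a poly(A)-binding protein, rose by 0.36 on the log2 scale (edgeR adjusted p = 0.0393). Among 24 other TOP messages 1 rose, Npm1, a nucleolar chaperone that is also in the assembly list, at 53.1, 52.8 and 57.1 CPM in WT and 74.8, 69.7 and 70.3 CPM in ADCY3∆AT.

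Of 103 assembly genes 3 rose, Npm1, the nucleolar helicase Ddx21 and the import receptor Ipo7, with log2 fold changes of 0.40, 0.36 and 0.49, and the median of that list was 0.05. Of 34 polymerase genes 1 rose, Ttf1, which ends transcription by polymerase I (log2 fold change 0.63, edgeR adjusted p = 0.0453). Of 40 genes of the mTORC1 list 4 rose and Eef2k fell. The 4 were Tsc1, a subunit of the complex that inhibits mTORC1, Fnip1 and Fnip2, which bind folliculin, and Ddit4, a stress-induced inhibitor of mTORC1. Tsc1 was at 15.1, 16.2 and 15.2 CPM in WT and 23.3, 23.2 and 21.2 CPM in ADCY3∆AT. Ddit4 was at 29.3, 21.4 and 24.1 CPM in WT and 253, 55.2 and 72.6 CPM in ADCY3∆AT, where replicate 1 stood far above the others. Of 16 transcription factor genes Max, the partner of Myc, rose by 0.36. Of 22 stalling and quality control genes 2 rose, Zfp598, the ubiquitin ligase that marks collided ribosomes, by 0.37, and Cdkn1a, the cell-cycle inhibitor induced by p53, by 1.34 on the log2 scale. The 14 calls over all lists were 1 without WT replicate 1, 3 without ADCY3∆AT replicate 2, 6 without WT replicate 2, WT replicate 3 or ADCY3∆AT replicate 3, and 9 without ADCY3∆AT replicate 1. Upper-quartile scaling gave 9 calls and the fit with the replicate number as a block gave 6.

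**Figure D5:**
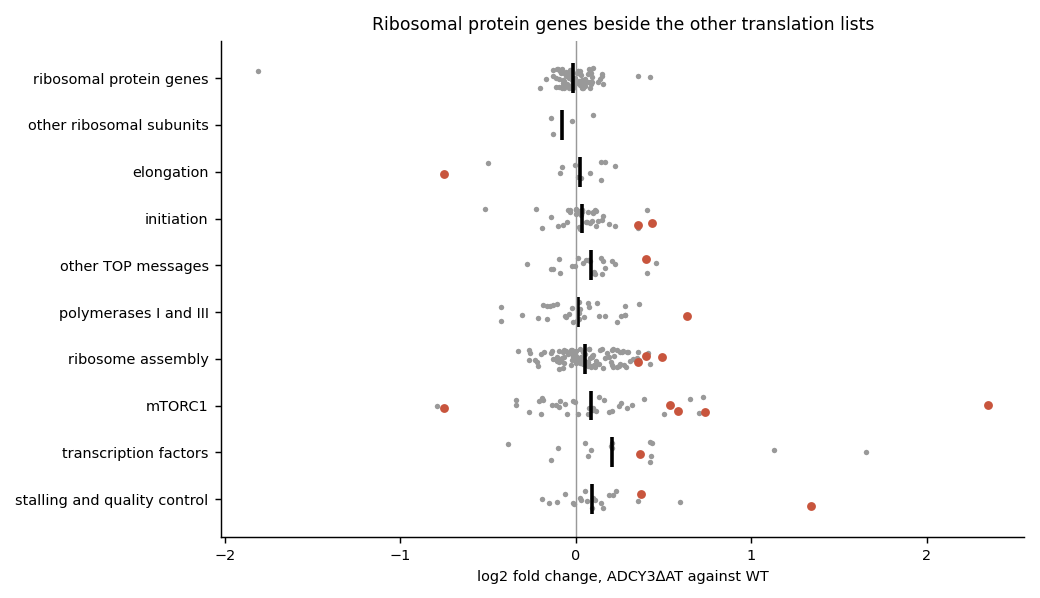
Log2 fold changes (ADCY3∆AT against WT) of the 84 tested ribosomal protein genes and of the tested genes of 9 other lists; each point is a gene, red points were called, and bars are medians. No ribosomal protein gene was called, and none of the other ribosomal subunits. Over the 9 lists together 14 of 278 tested genes were called (5.04%), against 4.30% of all genes tested.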

How the data were processed

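The authors deposited estimated counts per gene with 3 decimals for 6 libraries. The submitters' processing notes name GRCm38, StringTie, Salmon and edgeR, with no versions; whether counting used strand was not given there. Each column was tied to its sample by the number in the description, and symbols came from GENCODE M21. Counts were rounded, filtered with filterByExpr (minimum count 10, total 15), scaled by TMM and tested with the two-sided quasi-likelihood test of edgeR 4.0.16 in R 4.3.3, without covariates. Benjamini-Hochberg adjustment ran over all 14332 tested genes, with a threshold of 0.05. CPM are TMM-scaled; fold changes are ADCY3∆AT over WT, with errors from the F statistic. An exact permutation test of 3 against 3 libraries cannot go below p = 0.1. Pairs of replicates differed beyond counting noise (chi-square per gene 6.34 to 26.6), so none was merged. On simulated data, changes were placed in genes above 10 CPM only, 100 genes for each size. Of log2 changes of 1, 99% were recovered, and of changes of 0.5, 30.0%. The fit held 14058 genes, and 6 unchanged genes were called.

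Members and lists were chosen with earlier results of these data known. Adcy3 and the extra row are not members and were named as a check of the labels. Named members were called genes, the 6 largest changes in each direction, the 6 highest per exonic length and paralog pairs. The 12 genes of fixed interest and those not tested were named too. Genes with a special copy or separated groups (Rps9, Rps18, Rpl21, Rpl26, Rps23, Rpl27a) and those in the coding-length order and the sequences were named after their values were seen. In lists, up to 3 called genes were named, or 2 where none was, except Fnip1 and Ddit4, also named afterwards. 1 member and 1 list gene that these rules name are not reported here. Alternatives were DESeq2 1.42.0 factors and Wald test, upper-quartile or no scaling factors, limma 3.58.1 voom, other filters, a replicate block, GC and length offsets, pseudogenes summed and leaving out each library. Summing rows by shared 31-base words was added after seeing the data.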

Additional observations from a re-analysis of the deposited data

How the results depend on the processing

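No member was called under 15 of the 17 other settings. The Wald test of DESeq2 called 1 and edgeR with no filter on low counts called 2. Calls over all genes numbered 993 with DESeq2, 1951 with no filter, 324 with the replicate number as a block, and 162 to 461 when 1 library was left out, against 616. In the companion lists they were 9 with upper-quartile factors, 38 with no filter, 6 with the replicate block and 1 to 9 when 1 library was left out, against 14. The replicate numbers did not pair the libraries (correlations of same-numbered libraries 0.0013, -0.0068 and -0.049). The members' median moved between -0.05 and 0.03 when 1 library was left out, their share of counts (ADCY3∆AT minus WT) between -0.03 and 0.03 percentage points, and the quartile ratio of levels was 1.63 by coding length. With upper-quartile factors the median was -0.045 over all genes and -0.052 over the members.

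Directions were compared for the 36 named members that were fitted, and 15 turned under at least 1 setting. Apart from Rps27, whose log2 fold change was 0.15 with its copy summed, these had log2 fold changes within 0.07 of 0. With upper-quartile factors Rpl10 had -0.024, Rpl19 -0.0099, Rpl23a -0.0081, Rplp1 -0.014, Rps15 -0.020 and Rps4x -0.030. With no filter Rpl22l1 had 0.018, Rpl7 0.013 and Rpsa 0.0091, and with GC and length offsets Rpl41 had 0.0017. With 1 library left out, the ranges were -0.20 to 0.10 for Adcy3, -0.035 to 0.10 for Rpl10, -0.0061 to 0.076 for Rpl19, -0.11 to 0.10 for Rpl22l1, -0.0022 to 0.078 for Rpl23a, -0.060 to 0.025 for Rpl3, -0.090 to 0.020 for Rpl36a, -0.098 to 0.028 for Rpl41, -0.095 to 0.18 for Rpl5, -0.032 to 0.025 for Rpl7, -0.00030 to 0.067 for Rplp1, -0.11 to 0.015 for Rplp2, -0.015 to 0.076 for Rps15, -0.038 to 0.057 for Rps4x and -0.064 to 0.049 for Rpsa. The cause was not tested. Genes that were not tested had too few counts to pass the filter.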
